A study of Mus musculus with 7 samples.

Results

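The 35 genes described here carry a β-cell from glucose to insulin release: glucose entry and granule zinc, ion channels, receptors, cAMP signalling and the machinery that fuses insulin granules with the plasma membrane. They were chosen by symbol, with earlier results of these data known, and all 35 of 35 were found among the 49315 mouse genes of the count files. Total RNA, depleted of ribosomal RNA, was sequenced from islets isolated at an age of 7 days, in 3 control pools from Nrf2lox/lox mice and 4 pools from βNrf2KO mice, described in the labels as a β-cell specific Nrf2 deletion. Nrf2 is a transcription factor that switches on antioxidant genes, and both groups are of the neonatal age at which the series asks how it acts on β-cell proliferation. The promoter that drives Cre, the sex of the mice and whether the controls were littermates are not stated in those labels. Each pool was made from RNA of 5 animals, so p-values measure the spread between pools and not between animals. Pools carry the numbers 1, 2 and 4 in control and 1, 2, 3 and 4 in βNrf2KO.

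In a β-cell glucose enters through a facilitative transporter, and its metabolism raises ATP, which closes the ATP-sensitive potassium (KATP) channel. The membrane then depolarizes, voltage-gated calcium channels open, and calcium triggers fusion of docked granules by SNARE proteins. Hormones and lipids acting on receptors coupled to cAMP or to phospholipase C amplify this step. Rodent β-cells are known to acquire full glucose responsiveness only after birth, and several of these genes are used as marks of that maturation.

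Total counts ran from 21603654 to 25373105 in control pools and from 18187382 to 20847474 in βNrf2KO pools. Reads on the Cre sequence were 0 in each control pool and 23 to 73 in βNrf2KO pools, which fits the labels. The mitochondrial genome took 14.6% to 51.8% of counts in control and 10.02% to 27.7% in βNrf2KO pools (exact two-sided permutation p = 0.229). The β-cell markers Ins1, Ins2, Iapp, Pdx1, Nkx6-1, Mafa and Slc2a2, the last of them also among the 35 genes, were present in every pool. Summed, they gave 26445, 16327 and 46709 CPM (counts scaled to a common library size by TMM factors that adjust for RNA composition) in control pools 1, 2 and 4, against 32608 to 44985 CPM in βNrf2KO. Single markers of that list did not all follow the sum, most of which was Ins2 (8280 to 25592 CPM in control, 22403 to 31837 CPM in βNrf2KO). Ins1 ran from 6094 to 16094 CPM in control and from 5573 to 7928 CPM in βNrf2KO, and Mafa was lower in each βNrf2KO pool (7.13 to 10.7 CPM) than in each control pool (12.2 to 16.9 CPM). Of all genes tested, 3.81% were lower without overlap in this way. No gene, Mafa included, passed the edgeR test described below (smallest adjusted p = 0.571). Gcg, the glucagon gene that defines α-cells, ran from 3879 to 13633 CPM in control, highest in control pool 4, and from 4965 to 18338 CPM in βNrf2KO. The acinar, mesenchymal and neuronal lists are given as sums. The 9 acinar markers ran from 68.1 CPM in control pool 4 to 387 CPM in control pool 1, and from 55.6 to 215 CPM in βNrf2KO, with Pnlip at 0 in 2 pools. Not all of them followed the sum: Rbpjl had 1.93, 4.88 and 8.71 CPM in control pools 1, 2 and 4. Mesenchymal markers (7 genes) ran from 603 CPM in control pool 4 to 1462 CPM in control pool 1 and from 522 to 1029 CPM in βNrf2KO. Neuronal markers (8 genes), which matter because many of the exocytosis genes are also neuronal, ran from 88.8 to 161 CPM in control and from 83.6 to 128 CPM in βNrf2KO. In whole islets fewer cells of a type and less RNA per cell cannot be told apart.

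Promoter sequences show 4 of the genes whose values are described below. They are the 300 bases from 250 before to 50 from the start on, from RefSeq on GRCm38.p6, 5′ to 3′ on the gene's strand. Trpm5 and Sytl4 were the genes whose pools did not overlap between groups, Adcy5 had the smallest p among the lower genes, and Unc13a held 2 matches to the core letters of the Nrf2 site, as did Cacna1c. Capitals mark those matches (TGACNNNGC, either strand).
Trpm5, chr7:143094593-143094892, minus strand: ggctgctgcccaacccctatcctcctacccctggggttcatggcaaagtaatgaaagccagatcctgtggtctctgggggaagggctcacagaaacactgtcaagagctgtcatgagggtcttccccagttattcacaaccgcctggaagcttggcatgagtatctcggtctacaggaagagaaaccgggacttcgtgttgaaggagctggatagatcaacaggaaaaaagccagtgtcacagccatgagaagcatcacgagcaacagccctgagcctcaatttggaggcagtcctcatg
Sytl4, chrX:133981763-133982062, minus strand: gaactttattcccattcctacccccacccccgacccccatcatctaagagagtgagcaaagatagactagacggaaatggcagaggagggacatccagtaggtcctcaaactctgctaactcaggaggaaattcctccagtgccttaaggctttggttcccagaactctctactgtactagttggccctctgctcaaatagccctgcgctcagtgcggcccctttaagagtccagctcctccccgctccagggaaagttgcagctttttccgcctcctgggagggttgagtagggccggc
Adcy5, chr16:35154614-35154913, plus strand: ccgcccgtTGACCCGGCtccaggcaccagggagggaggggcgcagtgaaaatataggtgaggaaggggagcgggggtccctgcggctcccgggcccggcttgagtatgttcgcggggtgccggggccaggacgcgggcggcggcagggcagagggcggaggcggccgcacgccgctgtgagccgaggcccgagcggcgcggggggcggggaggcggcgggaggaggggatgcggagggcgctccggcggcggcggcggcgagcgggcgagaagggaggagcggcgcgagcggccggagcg
Unc13a, chr8:71671708-71672007, minus strand: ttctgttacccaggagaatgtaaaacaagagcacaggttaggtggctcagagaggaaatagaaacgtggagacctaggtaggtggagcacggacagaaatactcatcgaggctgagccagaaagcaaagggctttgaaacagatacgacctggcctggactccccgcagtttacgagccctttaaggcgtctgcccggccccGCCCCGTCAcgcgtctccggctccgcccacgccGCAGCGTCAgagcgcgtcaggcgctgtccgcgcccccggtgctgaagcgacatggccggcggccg
The reference held 29 promoters of 22 of the 35 genes. The core letters occurred in 4 of these 29 promoters (13.8%), those of Cacna1c, Unc13a, Ptprn2 and Adcy5, against 12.4% of all 32851 promoters. The cAMP response element TGACGTCA occurred in 0 of the 29, against 1.79% of all, and the left part of the REST site, TCAGCACC, in 2 of the 29 (Unc13a and Ptprn2), against 1.65%. A match is a description of letters and shows no binding.

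Compared per length, the 35 genes spanned a wide range in neonatal control islets. Levels between genes are given in TPM (shares of transcripts, from counts divided by exon length, over nuclear genes). The highest were Slc30a8, the zinc transporter of insulin granules, at 876 ± 187 TPM (SD, n = 3), and G6pc2, an islet glucose-6-phosphatase that returns phosphorylated glucose to free glucose, at 790 ± 408 TPM. Next came Abcc8, the sulfonylurea receptor subunit of the KATP channel, at 768 ± 216 TPM, and Ptprn, the granule membrane protein IA-2, at 521 ± 97.5 TPM. The first 3 of these did not differ beyond their spread, and each of the 3 was the highest of the 35 genes in at least 1 pool. Slc30a8 ranked 34 and G6pc2 ranked 46 among all nuclear genes by control mean. Syt13, Glp1r, Ptprn2, Vamp2 and Syt7 lay between 214 and 342 TPM, with differences between neighbours smaller than their spread. At the low end stood the sodium channels Scn9a (18.6 ± 2.92 TPM) and Scn3a (18.1 ± 2.94 TPM), the adenylyl cyclase Adcy5, the cation channel Trpm4 (7.72 ± 1.63 TPM) and the cyclase Adcy8 (1.81 ± 0.615 TPM). Adcy8 rested on 24 to 66 counts per pool and was last of the 35 in every pool.

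**Figure D1:**
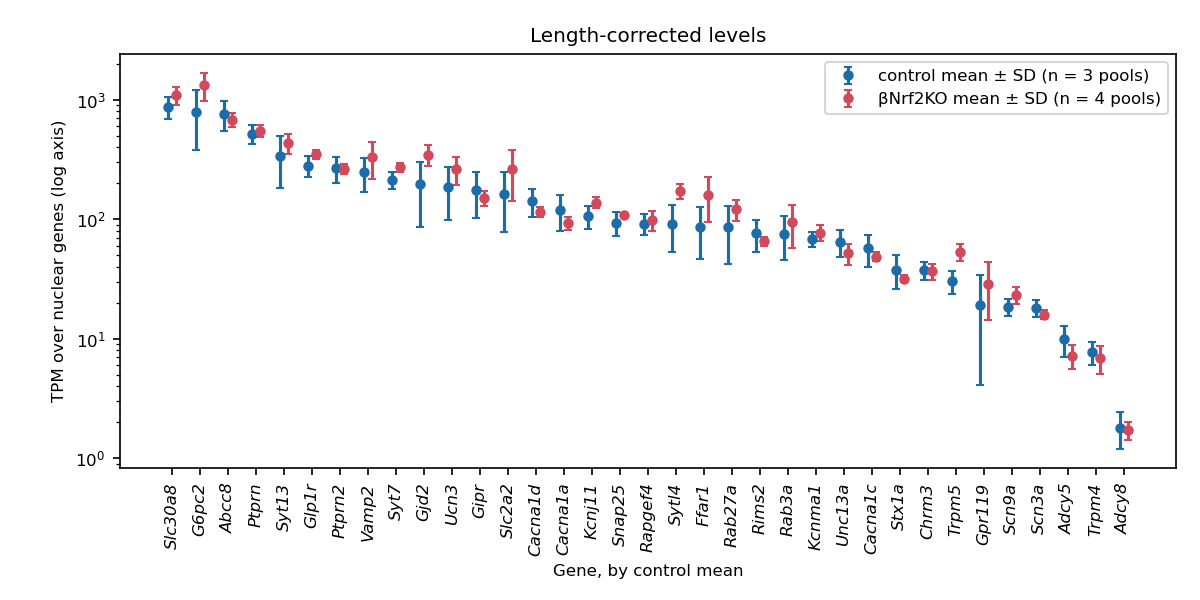
Length-corrected level of each of the 35 genes (vertical log axis, TPM over nuclear genes), ordered by the control mean. Points are means of 3 control (blue) or 4 βNrf2KO pools (red) and bars are SD. Levels run from 876 TPM for Slc30a8 to 1.81 TPM for Adcy8 in control pools.

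The comparison of βNrf2KO with control islets called none of the 35 genes. In edgeR's quasi-likelihood test, adjusted by Benjamini-Hochberg, 0 of 35 passed an adjusted p of 0.05, where 0 of 19893 tested genes did (0%), and DESeq2 and limma-voom also called 0 of the 35. Over all genes DESeq2 called 2 and limma-voom 0. At unadjusted p under 0.05 stood 5 of the 35 (14.3%), against 8.46% of all genes tested. The 4 higher in βNrf2KO were Sytl4, Ffar1, Gjd2 and Trpm5 (11.4%, against 3.23% of all genes), and the 1 lower was Adcy5 (2.86%, against 5.23%). Because the genes were chosen with earlier results of these data known, such shares beside all genes are description only. The 35 genes were all tested, 20 had a log2 fold change above 0 and 15 below (against 49.4% and 50.6% of all genes), and their median was 0.13, beside -0.01 over all genes. This count at unadjusted p was 19 of 35 without control pool 4 (54.3%, against 17% of all genes without that pool). Of these, 11 were higher (31.4%, against 7.64%) and 8 lower (22.9%, against 9.32%). Without control pool 1 it was 5 (14.3%, against 14.1% of all genes), of which 2 were higher and 3 lower. Without control pool 2 it was 2 (5.71%, against 2.31%). It was 9 without βNrf2KO pool 1 (25.7%, against 9.04%), 2 without βNrf2KO pool 3 (5.71%, against 3.97%) and 2 without βNrf2KO pool 4 (5.71%, against 4.22%). Even without control pool 4 the smallest adjusted p among the 35 was 0.16.

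**Figure D2:**
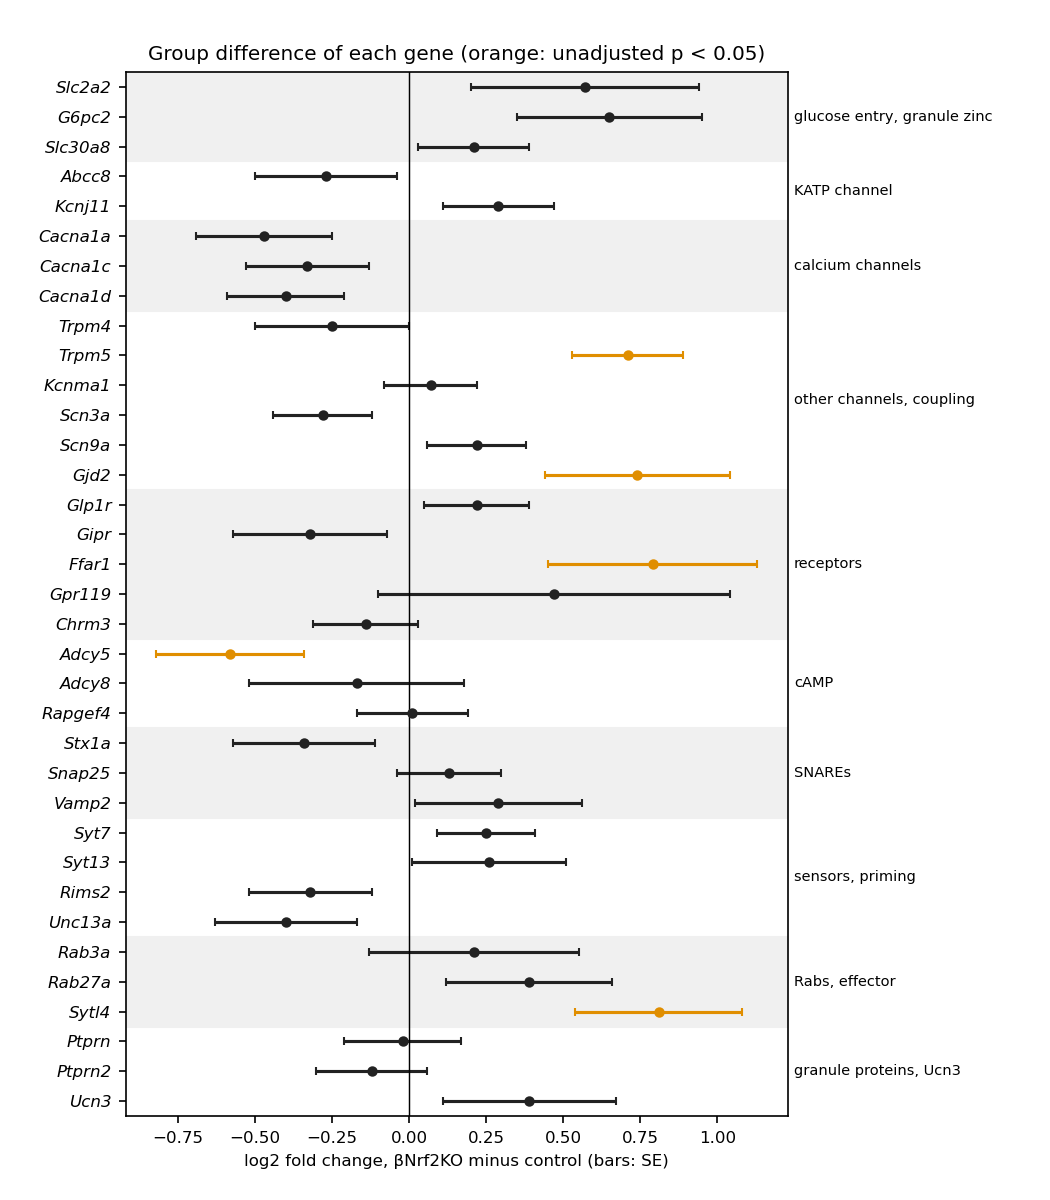
Difference between groups for each of the 35 genes (horizontal axis, log2 fold change of βNrf2KO minus control, with SE of the edgeR fit over 3 and 4 pools), grouped by role. Orange marks the 5 genes at unadjusted p under 0.05, and 0 of the 35 passed after adjustment over all genes.

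Glucose entry and granule zinc came first. Slc2a2, the glucose transporter GLUT2 of rodent β-cells, had 7.23, 7.35 and 8.42 log2 CPM in pools 1, 2 and 4 of the control group. It had 7.34, 8.43, 8.24 and 8.92 log2 CPM in βNrf2KO pools 1 to 4. Control pool 4 lay with βNrf2KO pools 2 and 3, and βNrf2KO pool 1 lay with control pools 1 and 2, so the groups overlapped. The log2 fold change was 0.57 ± 0.37 (SE, edgeR adjusted p = 0.625), over a range without single pools from 0.31 (βNrf2KO pool 4 left out) to 1.05 (control pool 4 left out). G6pc2 stood at 8.18, 7.85 and 9.14 log2 CPM in control and at 8.54, 9.25, 9.41 and 9.27 log2 CPM in βNrf2KO pools. It showed the same high control pool 4, with a difference of 0.65 ± 0.30 (adjusted p = 0.571), over a range of 0.40 (without control pool 2) to 1.13 (without control pool 4). Slc30a8 varied less, at 8.60, 8.38 and 8.92 against 8.82, 8.81, 8.71 and 9.09 log2 CPM, and differed by 0.21 ± 0.18 (adjusted p = 0.68), or by 0.09 without control pool 2 and 0.37 without control pool 4. All 3 genes were higher in βNrf2KO within each of the same-numbered pairs 1, 2 and 4, by 0.12 to 1.08 on the log2 scale for Slc2a2.

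The subunits of the KATP channel lie side by side on chromosome 7, and 3758 bases separate the annotated genes. Abcc8 (ENSMUSG00000040136, 46104523 to 46180033, minus strand, GRCm38) had 10.50, 10.89 and 10 log2 CPM in control and 10.58, 10.17, 10.07 and 10.10 log2 CPM in βNrf2KO pools. Here control pool 4 was the lowest pool of its group, and the difference was -0.27 ± 0.23 (adjusted p = 0.684). Without control pool 2 that difference was -0.03, and without control pool 4 it was -0.47. Kcnj11 (ENSMUSG00000096146, 46093953 to 46100764, minus strand), which encodes the pore, had 6.70, 6.11 and 6.64 log2 CPM in control and 6.87, 6.54, 6.97 and 6.75 log2 CPM in βNrf2KO. Its low pool was control pool 2, and it differed by 0.29 ± 0.18 (adjusted p = 0.618), which was 0.12 without that pool. The ratio of Abcc8 to Kcnj11 counts per kb was 6.36, 12.5 and 4.67 in control pools and 5.95, 5.61, 3.89 and 4.62 in βNrf2KO pools. That ratio was set apart in control pool 2, and the groups overlapped (exact two-sided permutation p = 0.229, adjusted p = 0.457 over 8 pairs of genes).

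Voltage-gated calcium channels lead from depolarization to release. Cacna1a, the pore of P/Q-type channels, had 8.15, 8.81 and 7.83 log2 CPM in control and 8.09, 7.93, 7.62 and 7.73 log2 CPM in βNrf2KO pools. Its difference was -0.47 ± 0.22 (adjusted p = 0.571), and -0.15 without control pool 2, the highest pool, and -0.67 without control pool 4. Cacna1d, an L-type pore, followed the same order of control pools at 8.17, 8.65 and 7.87 log2 CPM, against 7.95, 7.98, 7.69 and 7.82 log2 CPM. It differed by -0.40 ± 0.19 (adjusted p = 0.571), and by -0.16 without control pool 2. Cacna1c, the other L-type pore, differed by -0.33 ± 0.20 (adjusted p = 0.598), and by -0.04 without control pool 2 and -0.49 without control pool 4. In all 3 genes the groups overlapped. The ratio of Cacna1d to Cacna1c counts per kb was nearly constant, at 2.35 to 2.71 in control and 2.25 to 2.48 in βNrf2KO pools. Its size depends on the annotated exon lengths, 9242 bases for Cacna1d and 21191 for Cacna1c.

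Among the other channels, Trpm5 was one of the 2 genes of the 35 whose groups did not overlap, both higher in βNrf2KO (5.71% of the 35, against 3.19% of all genes higher in this way). None of the 35 was lower in that way, against 3.81% of all genes. Trpm5, a calcium-activated monovalent cation channel, had 5.77, 5.14 and 5.57 log2 CPM in control and 6.05, 6.10, 6.32 and 6.38 log2 CPM in βNrf2KO pools. The log2 fold change was 0.71 ± 0.18, a fold of 1.63 (adjusted p = 0.571), over a range of 0.55 to 0.85 without single pools. It was higher in 3 of 3 pairs, by 0.29, 0.96 and 0.82 for numbers 1, 2 and 4. Its relative Trpm4 differed by -0.25 ± 0.25 (adjusted p = 0.735). The ratio of Trpm5 to Trpm4 was 3.92, 2.90 and 5.43 in control and 4.81, 6.84, 11.4 and 10.2 in βNrf2KO pools, with 1 βNrf2KO pool inside the control range (exact permutation p = 0.114, adjusted p = 0.457). Gjd2, the gap junction protein connexin 36 that couples β-cells, had 6.80, 6.20 and 7.70 log2 CPM in control and 7.59, 7.50, 8.03 and 7.90 log2 CPM in βNrf2KO. Control pool 4 again lay among the βNrf2KO pools, and the difference of 0.74 ± 0.30 (adjusted p = 0.571) was 1.24 without it and 0.44 without control pool 2.

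The sodium channels Scn3a and Scn9a, which carry the fast sodium current of islet cells, and Kcnma1, the large-conductance calcium-activated potassium channel, varied little. Scn3a differed by -0.28 ± 0.16, Scn9a by 0.22 ± 0.16 and Kcnma1 by 0.07 ± 0.15 (adjusted p = 0.594, 0.644 and 0.883). The ratio of Scn3a to Scn9a was 0.818, 1.31 and 0.858 in control pools and 0.777, 0.786, 0.629 and 0.596 in βNrf2KO pools. Every βNrf2KO pool lay below every control pool, with a ratio of the geometric means of 0.712 (exact two-sided permutation p = 0.0571, the smallest this design allows, adjusted p = 0.457 over 8 pairs). On the log2 scale this difference of -0.49 was -0.28 without control pool 2, whose ratio was the highest. This ratio does not depend on library scaling, and it was the 1 of 8 pairs whose groups did not overlap.

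Receptors amplify release. Ffar1, the receptor of long-chain fatty acids GPR40, had 6.18, 5.77 and 6.96 log2 CPM in control and 6.37, 6.84, 7.57 and 7.59 log2 CPM in βNrf2KO pools. It differed by 0.79 ± 0.34 (adjusted p = 0.571) with overlapping groups, and its range without single pools was 0.55 to 1.19 (the highest without control pool 4). Glp1r, the receptor of the incretin GLP-1, had 6.65, 6.29 and 6.82 log2 CPM in control and 6.95, 6.67, 6.78 and 6.87 log2 CPM in βNrf2KO, a difference of 0.22 ± 0.17 (adjusted p = 0.654), which was 0.08 without control pool 2 and 0.34 without control pool 4. Gipr, the receptor of the other incretin, GIP, had 7.04, 7.72 and 6.48 log2 CPM in control and 7.11, 6.80, 6.55 and 6.87 log2 CPM in βNrf2KO. The incretin receptors thus had opposite orders of the control pools, with Glp1r lowest and Gipr highest in control pool 2. Gipr differed by -0.32 ± 0.25 (adjusted p = 0.662), and by 0.06 without that pool and -0.57 without control pool 4. Gpr119, a receptor of lipid amides, varied most of the 35, between 2.40 and 4.25 log2 CPM in control and between 2.07 and 4.27 log2 CPM in βNrf2KO, and differed by 0.47 ± 0.57 (adjusted p = 0.782), and by 0.16 when control pool 1 was left out and 1.33 when control pool 4 was. The muscarinic receptor Chrm3 differed by -0.14 ± 0.17 (adjusted p = 0.777).

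In cAMP signalling Adcy5, an adenylyl cyclase that makes cAMP, had 3.72, 4.49 and 3.82 log2 CPM in control and 3.54, 3.82, 3.13 and 3.31 log2 CPM in βNrf2KO pools. Its difference of -0.58 ± 0.24, a fold of 0.671 (adjusted p = 0.571), kept its sign without any 1 of the 7 pools, over a range of -0.71 to -0.30 (the latter without control pool 2), and it was lower in 3 of 3 pairs. βNrf2KO pool 2 reached the level of control pool 4, so the groups overlapped. Rapgef4, the cAMP sensor Epac2 of granule fusion, had 6.81, 7.27 and 7.36 log2 CPM in control and 6.87, 7.23, 7.19 and 7.35 log2 CPM in βNrf2KO, a difference of 0.01 ± 0.18 (adjusted p = 0.994). Same-numbered pools of Rapgef4 lay within 0.05 of each other. Adcy8 differed by -0.17 ± 0.35 (adjusted p = 0.872) at its low counts.

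The SNARE proteins form the fusion complex. Vamp2, on the granule, had 7.32, 7.72 and 8.19 log2 CPM in control and 7.27, 8.12, 8.28 and 8.40 log2 CPM in βNrf2KO, with βNrf2KO pool 1 as low as control pool 1. It differed by 0.29 ± 0.27 (adjusted p = 0.71), and by 0.11 without control pool 1 and 0.55 without control pool 4. Stx1a, the plasma membrane syntaxin, had 4.49, 5.02 and 4.07 log2 CPM in control and 4.40, 4.13, 4.33 and 4.03 log2 CPM in βNrf2KO, highest in control pool 2. Its difference of -0.34 ± 0.23 (adjusted p = 0.623) was -0.06 without that pool and -0.55 without control pool 4. Snap25, its partner on that membrane, differed by 0.13 ± 0.17 (adjusted p = 0.807), and by -0.04 without control pool 2. The 3 SNARE genes thus gave no common direction.

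Among the calcium sensors and priming factors, Syt13, an atypical synaptotagmin, had 7.68, 7.91 and 8.81 log2 CPM in control and 8.14, 8.52, 8.55 and 8.66 log2 CPM in βNrf2KO (0.26 ± 0.25, adjusted p = 0.727). Control pool 4 was the highest of all 7 pools, and the difference was 0.67 without it and 0.05 without control pool 1. Unc13a, which primes granules for fusion, had 7.66, 7.89 and 7.08 log2 CPM in control and 7.59, 7.21, 6.93 and 6.84 log2 CPM in βNrf2KO (-0.40 ± 0.23, adjusted p = 0.587), a difference of -0.22 without control pool 2 and -0.61 without control pool 4. It was lower in 3 of 3 pairs, although βNrf2KO pools 1 and 2 lay inside the control range. Syt7, a high-affinity calcium sensor of insulin release, differed by 0.25 ± 0.16 (adjusted p = 0.606), and Rims2, a scaffold of the release site, by -0.32 ± 0.20 (adjusted p = 0.601). Without control pool 2 the difference of Rims2 was -0.04.

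Rab GTPases tether granules. Sytl4, the Rab27a effector granuphilin that docks granules, was the other gene whose groups did not overlap. It had 7.20, 5.88 and 6.95 log2 CPM in control and 7.60, 7.28, 7.70 and 7.71 log2 CPM in βNrf2KO pools. Control pool 2 lay far below the rest, and the lowest βNrf2KO pool exceeded control pool 1 by a small margin. The log2 fold change was 0.81 ± 0.27, a fold of 1.75 (adjusted p = 0.571), which was 0.50 without control pool 2 and 1.07 without control pool 1. Within pairs 1, 2 and 4 it was higher by 0.40, 1.41 and 0.76. Rab27a, its partner, ran from 5.60 to 6.91 log2 CPM in control and from 6.42 to 6.89 log2 CPM in βNrf2KO (0.39 ± 0.27, adjusted p = 0.639), a difference of 0.13 without control pool 2 and 0.85 without control pool 4. Rab3a differed by 0.21 ± 0.34 (adjusted p = 0.835) and by -0.02 without control pool 1 and 0.54 without control pool 4.

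Ptprn and Ptprn2 encode the granule membrane proteins IA-2 and phogrin. Ptprn had 9.23, 9.13 and 8.64 log2 CPM in control and 9.31, 8.94, 8.94 and 8.74 log2 CPM in βNrf2KO (-0.02 ± 0.19, adjusted p = 0.973). Ptprn2 differed by -0.12 ± 0.18 (adjusted p = 0.815), and its 4 βNrf2KO pools lay between 8.88 and 9.02 log2 CPM. Ucn3, a secreted peptide whose rise after birth is used as a mark of β-cell maturity in mice, had 5.69, 5.44 and 6.60 log2 CPM in control and 5.79, 6.52, 6.52 and 6.58 log2 CPM in βNrf2KO. Its values fell into 2 levels, a low one with control pools 1 and 2 and βNrf2KO pool 1 and a high one with the other 4 pools. The difference was 0.39 ± 0.28 (adjusted p = 0.644), and 0.16 without control pool 2 and 0.81 without control pool 4.

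**Figure D3:**
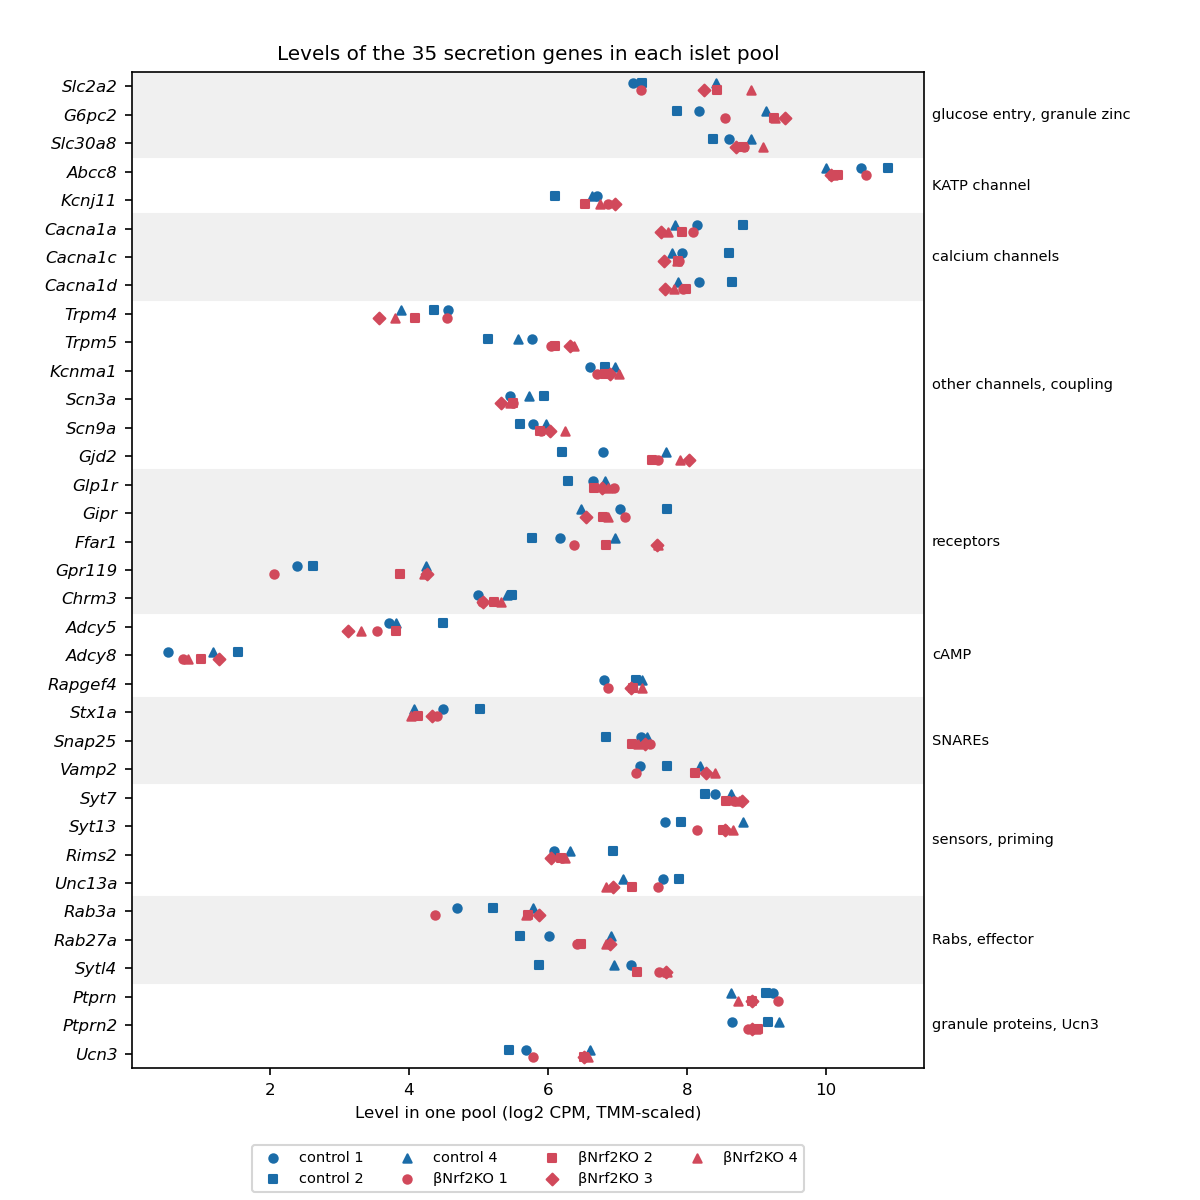
Level of each of the 35 genes in each of the 7 pools (horizontal axis, log2 CPM, 1 point per pool, symbol by pool number, blue for control and red for βNrf2KO), grouped by role. Trpm5 and Sytl4 are the 2 genes whose red and blue points do not overlap, and Gpr119 spans from 2.07 to 4.27.

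The spread among control pools was larger than the difference between groups for most of these genes. The range over the 3 control pools exceeded the absolute difference of the group means in 34 of the 35 genes, all but Trpm5, and in 18012 of all 19893 genes tested. The median control range was 0.824 on the log2 scale for the 35 genes and 0.741 for all genes, and the median βNrf2KO range was 0.477 and 0.634. Control pool 4 was the highest control pool for 18 of the 35 genes (against 33.2% of all genes), among them Slc2a2, G6pc2, Slc30a8, Ucn3, Glp1r, Ffar1, Gpr119, Gjd2, Syt13 and Vamp2. The same pool was the lowest for 9 (against 31.4%), namely Abcc8, Cacna1a, Cacna1c, Cacna1d, Gipr, Ptprn, Stx1a, Trpm4 and Unc13a. Control pool 2 was the highest for 12 of the 35 (against 33.4%) and the lowest for 13 (against 37.5%). The largest gaps between control pool 4 and the mean of control pools 1 and 2 were 1.74 for Gpr119, 1.20 for Gjd2 and 1.13 for both Slc2a2 and G6pc2, and at the other end -0.90 for Gipr. Of the control pools, control pool 4 also had the lowest mitochondrial share and the highest β-cell marker sum and Gcg level. Its acinar and mesenchymal sums were the lowest of that group. Control pool 2, without which several of the differences above were smaller, had the highest mitochondrial share of the 7 pools (51.8%). It also had the fewest genes with a count (25979) and the lowest β-cell marker sum (16327 CPM). Its TMM factor was 0.625, against 0.816 to 1.31 in the other pools. The part of all these in the gene values was not tested.

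**Figure D4:**
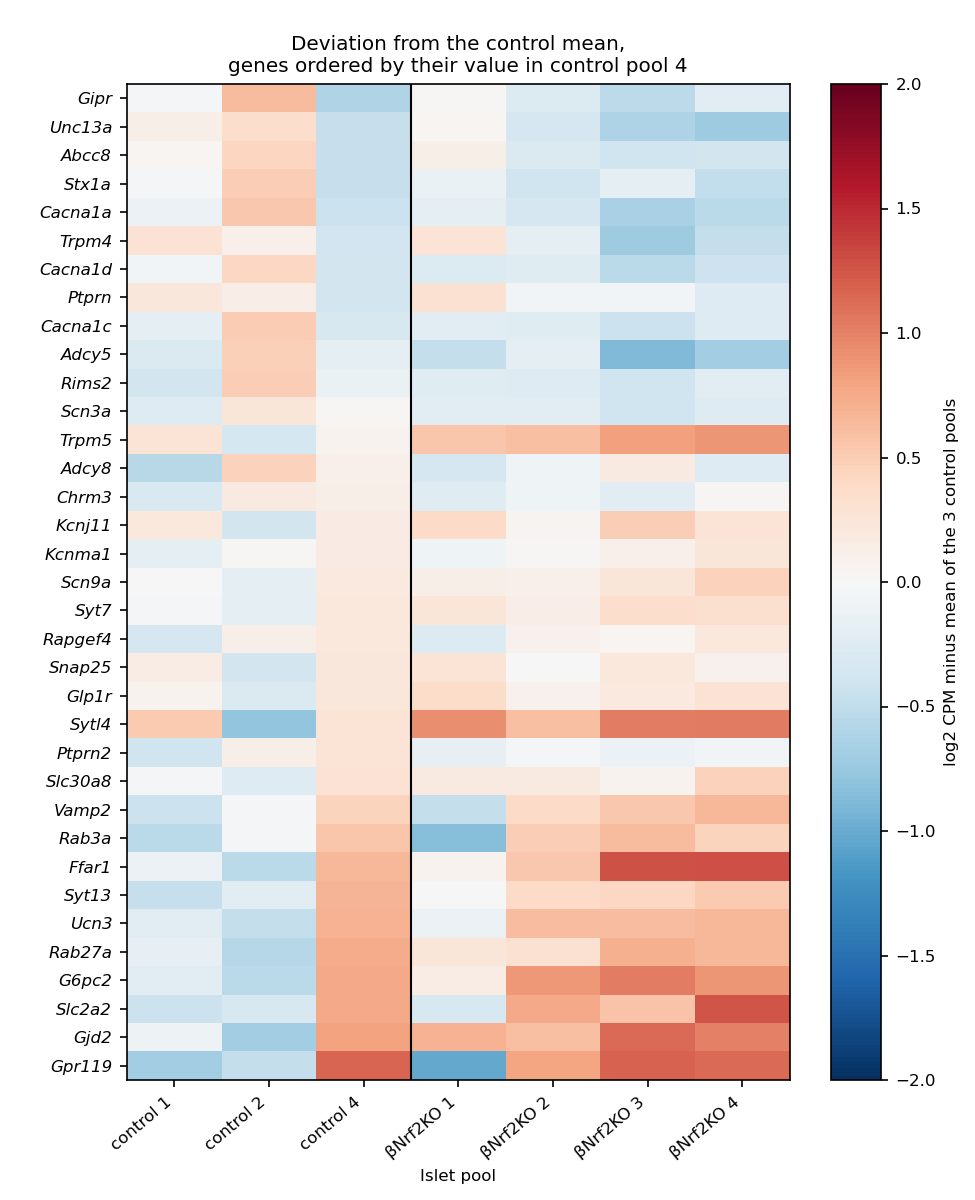
Deviation of each pool from the mean of the 3 control pools (colour, log2 CPM, red above and blue below), genes ordered by the value in control pool 4. Genes at the bottom, such as Gpr119, Gjd2 and Slc2a2, are high in control pool 4 and in most βNrf2KO pools, and genes at the top, such as Gipr and Unc13a, are low in control pool 4.

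Pools with the number 1 shared their low genes. βNrf2KO pool 1 was the lowest of its group for 15 of the 35 genes (against 32.8% of all genes) and control pool 1 for 13 (against 31%). Of these, 10 genes were common to both, 76.9% of the control list and 66.7% of the βNrf2KO list, where the same shares over all genes were 50.2% and 47.5%. They were Slc2a2, Kcnma1, Gpr119, Chrm3, Adcy8, Rapgef4, Vamp2, Syt13, Rab3a and Ptprn2. Within the same-numbered pairs 1, 2 and 4, 12 of the 35 genes were higher in βNrf2KO in all 3 pairs (against 19.1% of all genes) and 6 were lower in all 3 (against 17.9%). The 12, of which Kcnma1 differed by 0.00 after rounding in pair 2, were Slc2a2, G6pc2, Slc30a8, Kcnj11, Trpm5, Kcnma1, Scn9a, Gjd2, Glp1r, Ffar1, Syt7 and Sytl4. The 6 were Cacna1a, Cacna1d, Trpm4, Adcy5, Stx1a and Unc13a.

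The remaining pairs of partner genes overlapped between groups. Glp1r to Gipr was 1.80, 0.874 and 2.98 in control and 2.10 to 2.77 in βNrf2KO pools (exact permutation p = 0.457). Ptprn to Ptprn2 was 1.25 to 3.02 and 1.71 to 2.72 (exact permutation p = 0.914), and Rab3a to Rab27a was 0.701 to 1.33 and 0.423 to 1.03 (exact permutation p = 0.514). Adcy8 to Adcy5 was 0.145 to 0.218 and 0.190 to 0.376 (exact permutation p = 0.229). After adjustment over the 8 pairs the smallest exact permutation p was 0.457, so that none passed.

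**Figure D5:**
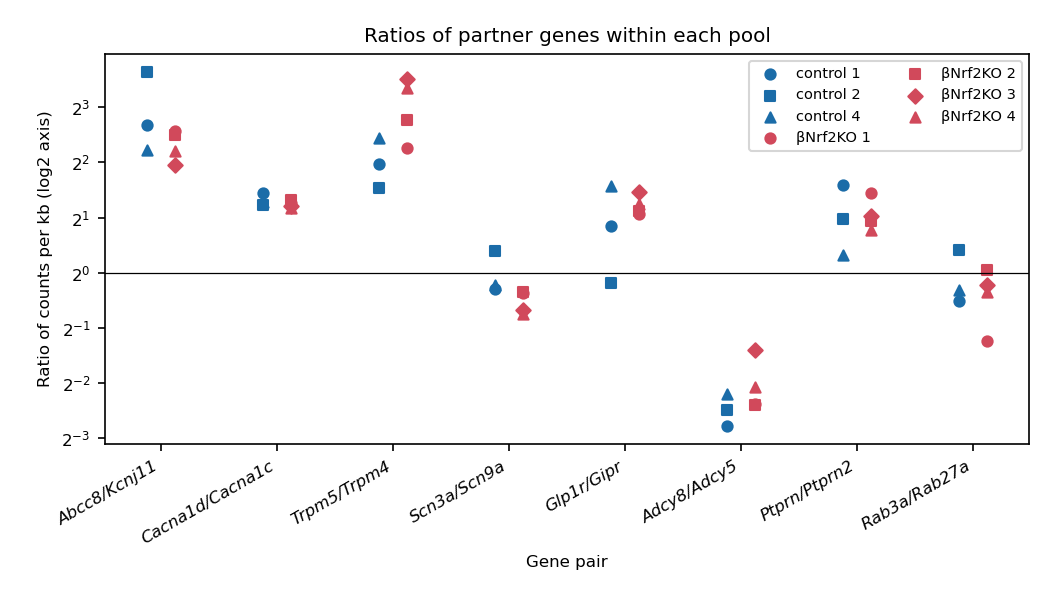
Ratio of counts per kb of 8 pairs of partner genes in each pool (vertical log2 axis, 1 point per pool, blue for control and red for βNrf2KO). Scn3a to Scn9a is the pair whose groups do not overlap, and Abcc8 to Kcnj11 reaches 12.5 in control pool 2.

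Beyond the 35 genes, a wider list of 127 other genes of glucose metabolism, excitability, calcium handling, receptor signalling and exocytosis was compared by the same fit. None of the 127 passed the threshold by edgeR, DESeq2 or limma-voom. At unadjusted p under 0.05 stood 4 higher (3.15%, against 3.23% of all genes) and 10 lower (7.87%, against 5.23%), and the median log2 fold change was -0.03. The total of 14 was 23, 1 and 36 of the 127 without control pools 1, 2 and 4 (against 14.1%, 2.31% and 17% of all genes). It was 5 and 7 of the 127 without βNrf2KO pools 3 and 4 (against 3.97% and 4.22%). Of 9 calcium channel subunits 8 were below 0, with a median of -0.29 (50.6% of all genes were below 0). Control pool 2 was the highest control pool for Cacna1b, Cacna1e, Cacna1h, Cacnb2, Cacnb3 and Cacna2d2, but not for Cacna1g, Cacnb1 and Cacna2d1. Of 13 sensor, docking and priming genes 10 were below 0, with a median of -0.17. Of 10 potassium channels 7 were below 0, and of 13 receptors 10 were above 0 (49.4% of all genes were above 0).

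Among the higher genes of the wider list with the smallest p were Pfkl, the liver-type phosphofructokinase of glycolysis (0.48 ± 0.18), Atp2a2, the calcium pump of the endoplasmic reticulum (0.47 ± 0.18), and Vamp4, a SNARE of vesicle traffic (0.40 ± 0.16), each with an edgeR adjusted p of 0.571 and without overlap between groups. Over the wider list, 5 of 127 were higher without overlap (3.94%, against 3.19% of all genes) and 4 lower (3.15%, against 3.81%), shares near those of all genes. Slc2a1, the glucose transporter GLUT1, differed by 1.22 ± 0.52 (adjusted p = 0.571). Its control pools stood at 5.77, 3.93 and 3.88 log2 CPM, so that control pool 1 lay among the βNrf2KO pools at 6.45, 5.64, 6.43 and 5.26 log2 CPM. It differed by 2.13 without control pool 1 and by 0.90 without control pool 4. Within the same-numbered pairs it was higher in βNrf2KO in 3 of 3, and with the pool number as a block the difference was 1.25 ± 0.20 (edgeR adjusted p = 0.0534), which also did not pass. The lower genes named were Adcyap1r1, the receptor of the neuropeptide PACAP (-0.81 ± 0.27), Rims1, a release-site scaffold (-0.93 ± 0.31), Kcnq1, a voltage-gated potassium channel (-0.71 ± 0.25), and Ano1, a calcium-activated chloride channel (-0.88 ± 0.33), each with an adjusted p of 0.571. Groups did not overlap for Adcyap1r1 and Rims1. Without control pool 2, the highest pool for all 4, the differences were -0.44 for Adcyap1r1, -0.66 for Rims1, -0.44 for Kcnq1 and -0.32 for Ano1. Beside these, 2 of the 8 neuronal markers were above 0 in βNrf2KO and none of the 5 Schwann cell markers (against 49.4% of all genes). Schwann cell sums were 30.8, 59.2 and 29.3 CPM in control pools 1, 2 and 4 and 26.2 to 27.4 CPM in βNrf2KO. None of the 8 acinar markers tested, 7 mesenchymal or 6 macrophage markers was above 0 either. In the other direction, 4 of 5 endothelial, 4 of 5 α-cell and 5 of 7 β-cell markers were above 0. The remaining lists were mixed, with 3 of 5 ductal, 2 of 3 δ-cell, 1 of 2 pancreatic polypeptide cell and 1 of 4 erythroid markers above 0. The part of all these in the values was not tested.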

How the data were processed

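The authors deposited raw counts per gene for 7 pools, 1 file each. Per the submitters' processing notes reads were prepared with bcl2fastq 2.20 and Trimmomatic 0.36, aligned by STAR 2.5.2b and counted by featureCounts (Subread 1.5.2). For the annotation release, strand setting and rule for multiply matching reads the value is not given in the sources used here, so antisense reads cannot be told apart. The notes name a newer build, but start and end were identical for 44858 of the 49056 IDs also found in GENCODE M21 (91.4%), which is on GRCm38. The Cre entry was kept out of all tests and totals, and the combined count table was not used.

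Genes were tested with edgeR 4.0.16 in R 4.3.3, using TMM factors, filterByExpr with the groups and its robust quasi-likelihood test (two-sided), with Benjamini-Hochberg adjustment over 19893 genes at a threshold of 0.05. The fit was tested on simulated data. Those were drawn without pool differences shared across genes, so that test does not bear on how such differences affect the calls here. Log2 CPM per pool used a prior count of 2, and log2 fold changes are βNrf2KO minus control with SE. Ratios and shares were tested by exact permutation of the 7 pools (35 splits, two-sided by doubling the smaller tail), where p cannot go below 0.0571. TPM over nuclear genes was chosen after seeing the unequal mitochondrial share. Correlations and figures used Python 3.11.15 with numpy 2.4.6, pandas 2.3.3, scipy 1.17.1 and matplotlib 3.10.9.

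The labels do not say what pool numbers stand for. After removal of group means, same-numbered pools correlated across genes at r = 0.376, 0.229 and 0.323 for numbers 1, 2 and 4. Others correlated at -0.353 to 0.241, the highest being control pool 4 with βNrf2KO pool 3, above the value for number 2. Deviations from a group mean cancel within the group, so this contrast is in part built in. With that limit, the numbers were treated as pairs in an alternative fit. Pool 3 has no control partner. Genes shown in every pool are, per role, the one with the smallest p and the one with the highest control TPM, and always Slc2a2, Abcc8, Kcnj11, Glp1r, Gipr and Ucn3. From the wider list up to 4 genes per direction with the smallest p and a mean log2 CPM of at least 1 are named; 1 further gene of that rule is not reported here. The genes and lists were chosen with earlier results of these data known. Of 128 genes of the wider list, 1 symbol was not found. Alternatives were RLE factors, leaving out the 35 mitochondrial genes of the files, no filter, DESeq2 1.42.0, limma-voom with quality weights (limma 3.58.1), the pool number as a block, a threshold of 0.1 and leaving out each pool. No source states molecular identifiers, so depth gives the counting error alone.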

Additional observations from a re-analysis of the deposited data

Results flagged for a closer look

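In 3 of 43 sets of the 4 βNrf2KO pools (35 genes and 8 ratios), 1 pool lay far from the other 3 by Dixon's criterion, which chance meets in about 5% of sets. Ucn3 had 5.79 log2 CPM in βNrf2KO pool 1, where the others had 6.52 to 6.58. Rab3a had 4.38 log2 CPM in the same pool, where the others had 5.68 to 5.87. Cacna1c had 7.67 log2 CPM in βNrf2KO pool 3, where the others had 7.85 to 7.88.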

How the results depend on the processing

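Across all alternatives run, 0 of the 35 genes and 0 of the 127 wider genes passed an adjusted p of 0.05, and 0 of the 35 passed 0.1. The smallest adjusted p among the 35 was lowest, at 0.16, when control pool 4 was left out and highest, at 1, when control pool 2 was. Over all genes edgeR called 0, DESeq2 called 2, edgeR with the pool number as a block called 14, and leaving out single pools gave 0 to 1. The block changed no other call. The number of the 35 genes at unadjusted p under 0.05, which was 5, ran from 2 to 19 without single pools. The corresponding number over all genes was 1683, 2620 with no filter on low counts and 475 to 3446 without single pools. Over the wider list it was 14, 9 by limma-voom and 1 to 36 without single pools. With the pool number as a block, 7 of the 35 genes stood at unadjusted p under 0.05 (20%), 6 higher and 1 lower. In that fit the number was 17 of the 127 wider genes and 2415 of all 19893 genes. The smallest edgeR adjusted p among the 35 with the block was 0.204, for Sytl4 (0.85 ± 0.19, SE). Of the 35 genes 27 kept their sign under every alternative, and all 35 did under those that kept all pools. The signs that turned without a single pool were those of Kcnma1 (range -0.02 to 0.16), Gipr (-0.57 to 0.06), Adcy8 (-0.40 to 0.07), Rapgef4 (-0.14 to 0.11), Snap25 (-0.04 to 0.23), Rab3a (-0.02 to 0.54), Ptprn (-0.18 to 0.09) and Ptprn2 (-0.30 to 0.02). The log2 difference of the ratio of Ptprn to Ptprn2 (0.08) ran from -0.24 to 0.40 and turned without control pool 4 or βNrf2KO pool 1. Fits without a pool test more or fewer genes, with fewer samples, and the cause of the other shifts was not tested. Depth limits Adcy8 most, at 24 to 66 counts per pool.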

Other observations

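The 35 genes differ widely in the stretch of genome they cover, which the choice of genes did not use. Spans ran from 3.90 kb for Vamp2 to 791 kb for Ptprn2. Of the 12 genes over 100 kb, 9 had a log2 fold change below 0, with a median of -0.22, namely Cacna1a, Cacna1c, Cacna1d, Rims2, Adcy5, Adcy8, Chrm3, Scn3a and Ptprn2. Of the 23 shorter genes 6 were below 0, with a median of 0.26, namely Abcc8, Trpm4, Gipr, Stx1a, Unc13a and Ptprn. Spearman's rho between the log2 fold change and gene span was -0.56 across the 35 genes, which share the 7 libraries, and -0.04 across all 19893 genes. Among control pools alone, rho between span and the gap of control pool 4 to the mean of control pools 1 and 2 was -0.39 across the 35 genes and -0.01 across all genes. Across the 35 genes, rho of the log2 fold change was also -0.50 with exon length and 0.82 with that gap of control pool 4. These 2 values were not computed over all genes, and span was not separated from exon length or from the gap. The fold change and that gap draw on the same control pools 1, 2 and 4, so the 0.82 does not relate independent measures. The relations were looked for after the values were seen, and the genes are not independent replicates. Of the 35 genes 7 lie on chromosome 2 and 6 on chromosome 7.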
